A study of Arabidopsis thaliana with 9 samples.

Results

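The sRNAs described here were those of exactly 21 nt among the sRNAs that the deposited tables list for the S-locus precursors Ah04mir1887, Ah20mirS3 and Ah20mirS2. They were chosen by their listed length alone, and sRNAs were counted as distinct by start, end, strand and sequence. The choice gave 64 distinct 21-nt sRNAs of 272 distinct sRNAs in all, 16 of 95 for Ah04mir1887, 28 of 109 for Ah20mirS3 and 20 of 68 for Ah20mirS2. The remaining 208 comprised 75 of 18 to 20 nt, 42 of 22 nt and 91 of 23 to 25 nt. The plants were A. thaliana of the C24 ecotype, each with a transgene for 1 of these A. halleri precursors (genotypes C24 Ah04mir1887, C24 Ah20mirS3 and C24 Ah20mirS2). Small RNAs were sequenced from immature floral buds. The study's methods give the Ah04mir1887 and Ah20mirS3 transgenes as homozygous and do not describe an Ah20mirS2 line. Each genotype gave an AGO1-IP library and an AGO4-IP library, pulled down with antibodies to ARGONAUTE1 and ARGONAUTE4, and an input library of the same extract, so there were 9 libraries without replicates. In the study's methods, 1 representative transgenic line stood for each of Ah04mir1887 and Ah20mirS3, and the Ah20mirS3 transgene also carries the neighbouring precursor Ah20mir1887. No library of untransformed C24 plants was analysed here.

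Plant miRNAs are cut from the stem of a folded precursor by DICER-LIKE enzymes. The canonical product is a duplex of 21-nt strands, 1 from each arm of the hairpin, in which each strand protrudes by 2 nt at its 3' end. An ARGONAUTE keeps 1 strand of the duplex, and the first base of the strand matters for this choice, since AGO1 prefers U and AGO4 prefers A. At the self-incompatibility locus of Brassicaceae, precursors of dominant alleles give sRNAs that repress the pollen gene SCR of recessive alleles.

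Beside each sRNA the tables give a code for its library of origin, with 3 codes per precursor and no read counts. Neither the sample labels nor the study's methods assign a code to the input, AGO1-IP or AGO4-IP fraction, so the codes are named here as the tables write them and stand for libraries of unknown fraction. The study's sRNA database also drew on earlier libraries, some of them from A. halleri, and whether a code belongs to one of those could not be told. For Ah04mir1887 and Ah20mirS3 the study reports more sRNAs than are listed here, with the larger difference for Ah20mirS3. The lists described here may therefore not be its full set. Ah04mir1887 has the codes AVBR-5, AVBR-6 and AVBR-14, Ah20mirS3 has AVBR-8, AVBR-9 and AVBR-15, and Ah20mirS2 has AVBR-2, AVBR-3 and AVBR-13. The depth of the libraries is unknown, and whether an sRNA is listed under a code depends on its abundance and on that depth. With 1 library per fraction, no test of differences between libraries was possible. The 95% Wilson intervals given with shares cover counting error only, and overlapping sRNAs of 1 hairpin are not independent draws.

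Of the 64 sRNAs, 11 were listed under all 3 codes of their precursor. Their sequences are shown because they are the 21-nt sRNAs that recurred under every code of their precursor. They are written 5' to 3', with T for U as in the tables and with the first base in capitals. Positions count from 1 on the A. halleri S-allele sequences. For Ah04mir1887, the 5' arm gave mir1887_sRNA235 (positions 13527 to 13547) and mir1887_sRNA67 (13531 to 13551), and the 3' arm gave mir1887_sRNA284 (13560 to 13580), mir1887_sRNA215 (13562 to 13582) and mir1887_sRNA255 (13563 to 13583).
mir1887_sRNA235: Gttcacttagattgttcttag
mir1887_sRNA67: Acttagattgttcttagtatg
mir1887_sRNA284: Tcgtactaagtagagtctaag
mir1887_sRNA215: Gtactaagtagagtctaagtg
mir1887_sRNA255: Tactaagtagagtctaagtga

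For Ah20mirS3, the 5' arm gave mirS3_sRNA349 (10230 to 10250) and mirS3_sRNA201 (10242 to 10262), and the 3' arm gave mirS3_sRNA183 (10320 to 10340) and mirS3_sRNA383 (10321 to 10341), whose 5' ends differ by 1 nt. For Ah20mirS2, which is on the minus strand, they were mirS2_sRNA103 of the 5' arm (2292 to 2312) and mirS2_sRNA17 of the 3' arm (2214 to 2234).
mirS3_sRNA349: Ttgcaagtaaccgatcaaaac
mirS3_sRNA201: Gatcaaaaccaaaaggaagtt
mirS3_sRNA183: Ctttgattggttacccgtaaa
mirS3_sRNA383: Tttgattggttacccgtaaaa
mirS2_sRNA103: Tgttatgatacaaattgtgtt
mirS2_sRNA17: Acaagttgcagcataacacgt

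Each precursor thus had at least 1 sRNA of each arm under all 3 codes. Among the 11, 5 began with U, 3 with G, 2 with A and 1 with C. Their first bases were therefore mixed. As the fraction of each code is unknown, this mix says nothing of the preferences of AGO1 and AGO4.

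The 21-nt sRNAs recurred between codes to different degrees in the 3 precursors. For Ah04mir1887, 7 were listed under 1 code, 4 under 2 codes and 5 under 3 codes. For Ah20mirS3 these numbers were 13, 11 and 4, and for Ah20mirS2 they were 15, 3 and 2. The share listed under at least 2 codes was 56.3% (33.2 to 76.9%) of the 21-nt sRNAs and 35.4% (25.8 to 46.4%) of the other lengths for Ah04mir1887. For Ah20mirS3 it was 53.6% (35.8 to 70.5%) of the 21-nt sRNAs and 32.1% (22.9 to 42.9%) of the other lengths. For Ah20mirS2 the order was turned round, with 25% (11.2 to 46.9%) of the 21-nt sRNAs and 31.3% (20 to 45.3%) of the other lengths. Over all 3 precursors, 29 of 64 21-nt sRNAs (45.3%, 33.7 to 57.4%) and 69 of 208 others (33.2%, 27.1 to 39.8%) were listed under at least 2 codes. The intervals overlapped in each of these comparisons, so recurrence was not shown to be particular to 21 nt.

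Each code listed some 21-nt sRNAs, and in each precursor the longest list held the most. Of the Ah04mir1887 sRNAs, AVBR-14 listed 14 among 72 sRNAs, AVBR-6 listed 8 among 45 and AVBR-5 listed 8 among 30. Of the Ah20mirS3 sRNAs, AVBR-8 listed 22 among 78, AVBR-15 listed 16 among 46 and AVBR-9 listed 9 among 38. Of the Ah20mirS2 sRNAs, AVBR-2 listed 16 among 42, AVBR-13 listed 8 among 29 and AVBR-3 listed 3 among 23. The share of 21 nt therefore lay between 13.0% (4.54 to 32.1%) under AVBR-3 and 38.1% (25 to 53.2%) under AVBR-2, and these intervals overlapped. The length of 21 nt was the most frequent in 6 of the 9 codes and tied with others in 1, AVBR-6, where 21, 22 and 24 nt had 8 sRNAs each. Under AVBR-9 and AVBR-3, 24-nt sRNAs were more numerous, with 9 sRNAs of 21 nt and 11 of 24 nt under AVBR-9, and 3 of 21 nt and 6 of 24 nt under AVBR-3.

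Many sRNAs rested on 1 code, 35 of 64 at 21 nt (54.7%) and 139 of 208 of the other lengths (66.8%). AVBR-2 alone listed 11 of the 20 Ah20mirS2 sRNAs, AVBR-8 alone listed 9 of the 28 Ah20mirS3 sRNAs and AVBR-14 alone listed 6 of the 16 Ah04mir1887 sRNAs. These were 55.0%, 32.1% and 37.5% of the 21-nt sRNAs, against 33.3% (16 of 48), 48.1% (39 of 81) and 38.0% (30 of 79) of the other lengths under the same codes. Without AVBR-2, 9 of the Ah20mirS2 sRNAs were left, and without AVBR-14, 10 of the Ah04mir1887 sRNAs. AVBR-6 listed 0 that no other code listed. For each of the 9 pairs of codes of a precursor, the shared 21-nt sRNAs made up 62.5 to 87.5% of its shorter 21-nt list. For the other lengths the range was 31.0 to 68.2%, and the 21-nt share was the higher in 9 of 9 pairs. This order depended on the list used as divisor. As a share of the longer list, 21 nt was the lower in some pairs. These were AVBR-9 with AVBR-15 (37.5% against 56.7%), AVBR-2 with AVBR-3 (12.5% against 26.9%) and AVBR-3 with AVBR-13 (25% against 42.9%). In the remaining pairs 21 nt was the higher. The pairs share codes, their shorter lists held 3 to 16 sRNAs at 21 nt, and these differences were not tested. Of the 8 sRNAs under AVBR-6, 7 were also under AVBR-14, which is 87.5% of the AVBR-6 list and 50.0% of the AVBR-14 list, and of the other lengths 23 of 37 were (62.2% and 39.7% of these lists). Of the 9 under AVBR-9, 6 were also under AVBR-8, which is 66.7% of the AVBR-9 list and 27.3% of the AVBR-8 list, and of the other lengths 9 of 29 were (31.0% and 16.1%).

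By first base, 33 of the 64 began with U, 17 with A, 9 with C and 5 with G. The share with U was 43.8% (23.1 to 66.8%) for Ah04mir1887, 57.1% (39.1 to 73.5%) for Ah20mirS3 and 50.0% (29.9 to 70.1%) for Ah20mirS2. Over all 3 precursors it was 51.6% (39.6 to 63.4%) of the 21-nt sRNAs, against 48.1% (41.4 to 54.8%) of the other lengths, so the 5' U did not set the 21-nt sRNAs apart. The hairpins themselves are rich in U. Of all 21-nt windows in the covered sequence, 36.1% of 97 began with U in Ah04mir1887, 37.0% of 100 in Ah20mirS3 and 34.5% of 84 in Ah20mirS2. These shares lay within the intervals of the listed sRNAs for Ah04mir1887 and Ah20mirS2, and just under the lower bound for Ah20mirS3.

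Over all 3 precursors, U began 16 of the 31 sRNAs of 5' arms (51.6%) and 17 of the 33 of 3' arms (51.5%). Within a precursor the order of the arms varied, and the intervals of its arms overlapped. In Ah20mirS3, 11 of 17 sRNAs of the 3' arm (64.7%, 41.3 to 82.7%) and 5 of 11 of the 5' arm (45.5%, 21.3 to 72.0%) began with U, where 47.8% and 27.8% of the windows of these arms did. In Ah20mirS2 the U-beginning sRNAs lay mostly on the 5' arm, with 8 of 12 there (66.7%, 39.1 to 86.2%) and 2 of 8 across the loop (25%, 7.15 to 59.1%), where 50.0% and 22.9% of the windows did. In Ah04mir1887, U began 3 of 8 of the 5' arm, and 4 of 8 across the loop, with 39.0% and 31.6% of the windows. The interval of each arm included the share of its windows.

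The first base differed most between the codes of Ah20mirS3. AVBR-8 listed all 16 of the U-beginning 21-nt sRNAs of this precursor and 0 of its 5 A-beginning ones, with 4 of 5 beginning with C and 2 of 2 beginning with G. AVBR-9 listed 2 of the 16 with U and 3 of the 5 with A. AVBR-15 listed 9 of the 16 with U and 4 of the 5 with A. The share of 21-nt sRNAs with a 5' U was thus 72.7% (51.8 to 86.8%) under AVBR-8, 56.3% (33.2 to 76.9%) under AVBR-15 and 22.2% (6.32 to 54.7%) under AVBR-9, and the intervals of AVBR-8 and AVBR-9 overlapped only at their ends. The other lengths had the same order, with 66.1% of 56 sRNAs under AVBR-8, 50.0% of 30 under AVBR-15 and 20.7% of 29 under AVBR-9, and AVBR-8 listed 2 of their 13 A-beginning sRNAs. The pattern was therefore not particular to 21 nt. The A-beginning sRNAs that AVBR-8 lacked are shown here, with the first base in capitals.
mirS3_sRNA42: Aataagcagtcgttttagatt
mirS3_sRNA24: Aaccgatcaaaaccaaaagga
mirS3_sRNA39: Aaggaagttgatacaatgaat
mirS3_sRNA16: Aaatttcttttagctttgatt
mirS3_sRNA129: Atttcttttagctttgattgg

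The first 3 of these are from the 5' arm, with 5' ends at positions 10209, 10238 and 10254, and the last 2 from the 3' arm, with 5' ends at 10307 and 10309. They were singled out after their values had been seen. For Ah04mir1887, AVBR-5 listed 5 of the 7 U-beginning and 1 of the 6 A-beginning 21-nt sRNAs, AVBR-6 listed 4 and 2 of them, and AVBR-14 listed 5 and 6. Of the other lengths, with 28 beginning with U and 20 with A, AVBR-5 listed 15 and 3, AVBR-6 listed 9 and 11, and AVBR-14 listed 25 and 16. For Ah20mirS2, AVBR-2 listed 9 of the 10 with U and 3 of the 6 with A, AVBR-3 listed 1 and 2, and AVBR-13 listed 3 and 4. Of the other lengths, with 30 beginning with U and 11 with A, AVBR-2 listed 21 and 2, AVBR-3 listed 13 and 6, and AVBR-13 listed 12 and 6. The share with a 5' U was higher at 21 nt than at the other lengths under AVBR-6 (50.0% of 8 against 24.3%). It was lower under AVBR-2 (56.3% of 16 against 80.8%), AVBR-3 (33.3% of 3 against 65.0%) and AVBR-13 (37.5% of 8 against 57.1%). Under AVBR-5 it was 62.5% against 68.2%, and under AVBR-14 35.7% against 43.1%. These differences were not tested. As the tables give neither fraction nor depth for a code, the 2 cannot be told apart in these differences.

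The hairpins were rebuilt from the overlapping sRNAs of all lengths and folded, and each sRNA was placed on an arm by its midpoint relative to the terminal loop. In all, 31 of the 21-nt sRNAs belonged to 5' arms and 33 to 3' arms. The loop of Ah20mirS3 holds 30 nt that no listed sRNA covers, and that of Ah20mirS2 holds 8 such nt of 12, so the edges of both are approximate. Ah04mir1887 had 8 on each arm. Ah20mirS3 had 11 of its 28 on the 5' arm, with 17 across the loop, a 5' arm share of 39.3% (23.6 to 57.6%). Ah20mirS2 had 12 of its 20 on the 5' arm, with 8 across the loop, a share of 60.0% (38.7 to 78.1%). Each interval included an even split, and also the 5' arm share of the other lengths. This was 43.0% in Ah04mir1887, 44.4% in Ah20mirS3 and 54.2% in Ah20mirS2. The arms did not hold equal numbers of 21-nt windows in the covered sequence. The 5' and 3' arms had 59 and 38 in Ah04mir1887, 54 and 46 in Ah20mirS3, and 36 and 48 in Ah20mirS2. Without AVBR-8 the Ah20mirS3 arms had 7 and 12 sRNAs, and without AVBR-2 the Ah20mirS2 arms had 5 and 4. Assigning arms by the 5' end changed none of these numbers.

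Most 21-nt sRNAs lay within the stem. Only 5 of the 64 reached into the terminal loop, 4 from Ah04mir1887 with 1 or 2 nt in the loop and mirS3_sRNA39 with 10 nt. Among the other lengths, 37 of 208 did so. In Ah04mir1887, 15 of the 33 sRNAs of 23 to 25 nt and 5 of the 31 of 18 to 20 nt reached it, beside the 4 of 16 at 21 nt. The number of bases paired in the stem was between 8 and 19 of the 21 for Ah04mir1887, between 10 and 19 for Ah20mirS3 and between 13 and 19 for Ah20mirS2, with medians of 18, 18 and 17. The lowest value belonged to mir1887_sRNA2 (13490 to 13510), the outermost sRNA of the Ah04mir1887 5' arm, which was listed under AVBR-6 and AVBR-14.

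Sequences of 1 length on 1 strand each have a 5' end of their own, so the 64 sRNAs had 64 5' ends, and their spacing shows how they were staggered. Neighbouring 5' ends on the 3' arm of Ah04mir1887 lay a median of 1 nt apart, with 5 of 7 gaps of exactly 1 nt, and all 8 fell within 11 nt, between positions 13557 and 13568. On the 3' arm of Ah20mirS3 most sRNAs were as tightly staggered, those with 5' ends between 10306 and 10322. Over the whole of this arm, with 5' ends from 10306 to 10347, 11 of 16 gaps were 1 nt. The longest run held 6 consecutive 5' ends at positions 10312 to 10317. This run is shown because it gives the stagger base by base, with the first base in capitals.
mirS3_sRNA287: Tcttttagctttgattggtta
mirS3_sRNA189: Cttttagctttgattggttac
mirS3_sRNA404: Ttttagctttgattggttacc
mirS3_sRNA363: Tttagctttgattggttaccc
mirS3_sRNA314: Ttagctttgattggttacccg
mirS3_sRNA259: Tagctttgattggttacccgt

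Of these 6, 5 began with U, mirS3_sRNA189 with C, and all were listed under AVBR-8, with 3 of them also under AVBR-15. The 5' arms of Ah04mir1887 and Ah20mirS3 had wider median gaps than their 3' arms, and that of Ah20mirS2 a narrower one. Gaps had a median of 3 nt on the Ah04mir1887 5' arm, 4.5 nt on that of Ah20mirS3 and 2 nt on that of Ah20mirS2, whose 3' arm had a median of 3 nt. In Ah04mir1887 a single gap of 31 nt separated mir1887_sRNA2 from mir1887_sRNA239 (13521 to 13541), the next sRNA on that arm. In Ah20mirS3 a gap of 20 nt separated mirS3_sRNA337 (10322 to 10342) from mirS3_sRNA410 (10342 to 10362) on the 3' arm. Both arms of each precursor thus had listed 21-nt sRNAs at several places rather than at 1. Of the 21-nt windows in the covered sequence, 16.5% of 97 were listed in Ah04mir1887, 28.0% of 100 in Ah20mirS3 and 23.8% of 84 in Ah20mirS2. Windows that touch an uncovered base were left out. This raises the shares of Ah20mirS3 and Ah20mirS2, so the 3 shares are not like for like.

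The outermost sRNAs of each arm set these spans. On the 5' arm they were mir1887_sRNA2 and mir1887_sRNA89 (13535 to 13555) for Ah04mir1887, mirS3_sRNA155 (10201 to 10221) and mirS3_sRNA39 (10254 to 10274) for Ah20mirS3, and mirS2_sRNA99 (2302 to 2322) and mirS2_sRNA111 (2272 to 2292) for Ah20mirS2. On the 3' arm they were mir1887_sRNA329 (13557 to 13577) and mir1887_sRNA103 (13568 to 13588), mirS3_sRNA142 (10306 to 10326) and mirS3_sRNA267 (10347 to 10367), and mirS2_sRNA96 (2224 to 2244) and mirS2_sRNA9 (2200 to 2220). Of these 12, 8 were listed under 1 code and 4 under 2 codes. The bases covered by most 21-nt sRNAs lay in 14 of them, at positions 10322 to 10326 of Ah20mirS3. In Ah04mir1887 all 8 sRNAs of the 3' arm shared the 10 bases from 13568 to 13577. In Ah20mirS2 the deepest bases, 2302 to 2304 on the 5' arm, lay in 9 sRNAs. Cuts in phase along the stem would leave distances of exactly 21 nt between 5' ends of 1 arm. Such distances were found for 0 of 56 pairs in Ah04mir1887, 4 of 191 in Ah20mirS3 and 3 of 94 in Ah20mirS2. In Ah04mir1887 the layout allowed none. Its 3' arm ends span 11 nt, and its 5' arm ends lie between 13521 and 13535 but for 1 that is 31 nt away. Other distances were not set beside these numbers, so they cannot show whether cuts were in phase.

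Sharing of ends with other lengths was common, and it was not shown to be particular to 21 nt. The sRNAs of other lengths also shared 5' ends. In Ah04mir1887, 79 of them had 35 5' ends, in Ah20mirS3 81 had 36, and in Ah20mirS2 48 had 27. Of the 64, 46 had the same 5' end as at least 1 sRNA of another length, 41 had the same 3' end as another, 32 had both and 9 had neither. The 5' end was shared with a 22-nt sRNA for 28, with a 20-nt sRNA for 27 and with a 24-nt sRNA for 21. At 3 positions the listed sRNAs formed a full ladder, in which sRNAs of every length from 18 to 25 nt began at the same base. These began with mir1887_sRNA67 at 13531, mir1887_sRNA284 at 13560 and mirS3_sRNA183 at 10320, and each of these 21-nt sRNAs was listed under all 3 codes. The sRNA mir1887_sRNA329 had such a ladder at its 3' end, position 13577, with 0 other sRNAs at its 5' end. In Ah20mirS2 the longest ladder had 6 other lengths, at the 5' end of mirS2_sRNA111, which was listed under AVBR-2 only.

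Each 21-nt sRNA of the 5' arm was next set against each of the 3' arm on the fold, and the 3' overhangs of the pair were read from the base pairs. In Ah04mir1887, 4 of 64 pairs had 2-nt overhangs at both ends, in Ah20mirS3 7 of 187, and in Ah20mirS2 3 of 96. They took in 8 of the 16, 14 of the 28 and 6 of the 20 sRNAs, each in 1 pair. The 4 duplexes of Ah04mir1887 are shown strand by strand, that of the 5' arm first, with the overhanging bases in capitals.
mir1887_sRNA67: acttagattgttcttagtaTG
mir1887_sRNA255: tactaagtagagtctaagtGA
mir1887_sRNA265: tagattgttcttagtatgaGG
mir1887_sRNA284: tcgtactaagtagagtctaAG
mir1887_sRNA314: tgttcacttagattgttctTA
mir1887_sRNA103: agtagagtctaagtgaagaAG
mir1887_sRNA235: gttcacttagattgttcttAG
mir1887_sRNA29: aagtagagtctaagtgaagAA

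The first of these, mir1887_sRNA67 with mir1887_sRNA255, was the only 1 of the 4 whose strands were both listed under all 3 codes. Of the others under all 3 codes, mir1887_sRNA215 faced mir1887_sRNA67 with 1-nt overhangs. The strands of the first duplex form 17 base pairs at the 19 facing positions, and RNAduplex gave it -18.6 kcal/mol. The second, mir1887_sRNA265 (13534 to 13554) with mir1887_sRNA284, was listed with both strands under AVBR-6 and AVBR-14, has 17 pairs and -18.9 kcal/mol, and begins with U on both strands. The strands of the other two, mir1887_sRNA314 (13526 to 13546) with mir1887_sRNA103 and mir1887_sRNA235 with mir1887_sRNA29 (13567 to 13587), were listed together under AVBR-14 only, and have 16 pairs each. Without AVBR-14, 2 of the 4 duplexes were left.

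Among the 7 duplexes of Ah20mirS3, mirS3_sRNA349 with mirS3_sRNA383 was the one with both strands under all 3 codes. It has 17 base pairs at -19.4 kcal/mol and begins with U on both strands. It is shown with mirS3_sRNA239 (10237 to 10257) and mirS3_sRNA404 (10314 to 10334), a duplex under AVBR-8, and with mirS3_sRNA201 and mirS3_sRNA129 (10309 to 10329), a duplex under AVBR-9 and AVBR-15, again with the overhanging bases in capitals.
mirS3_sRNA349: ttgcaagtaaccgatcaaaAC
mirS3_sRNA383: tttgattggttacccgtaaAA
mirS3_sRNA239: taaccgatcaaaaccaaaaGG
mirS3_sRNA404: ttttagctttgattggttaCC
mirS3_sRNA201: gatcaaaaccaaaaggaagTT
mirS3_sRNA129: atttcttttagctttgattGG

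The remaining 4 were mirS3_sRNA247 (10208 to 10228) with mirS3_sRNA368 (10343 to 10363), mirS3_sRNA42 with mirS3_sRNA410, mirS3_sRNA24 with mirS3_sRNA189, and mirS3_sRNA277 (10244 to 10264) with mirS3_sRNA16. The strands of mirS3_sRNA24 and mirS3_sRNA189, and those of mirS3_sRNA277 and mirS3_sRNA16, shared no code, so no code listed both. The energies of the 7 lay between -19.4 and -9.5 kcal/mol. Without AVBR-8, 3 of the 7 duplexes were left.

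In Ah20mirS2 the strands listed under all 3 codes, mirS2_sRNA103 and mirS2_sRNA17, faced each other with overhangs of 3 nt, at -10.9 kcal/mol. With a 2-nt overhang mirS2_sRNA103 faced mirS2_sRNA44 (2215 to 2235), listed under AVBR-2 only, which begins 1 nt before mirS2_sRNA17. The other two 2-nt duplexes were mirS2_sRNA108 (2290 to 2310) with mirS2_sRNA6 (2217 to 2237), which shared no code, and mirS2_sRNA56 (2286 to 2306) with mirS2_sRNA52 (2221 to 2241). Each had 15 base pairs. All 3 rested on AVBR-2, and 0 were left without it. The first is shown beside mirS2_sRNA17, with the last 2 bases in capitals.
mirS2_sRNA103: tgttatgatacaaattgtgTT
mirS2_sRNA44: cacaagttgcagcataacaCG
mirS2_sRNA17: acaagttgcagcataacacGT

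Pairs with a 2-nt overhang were not clearly more numerous than pairs with a neighbouring overhang. For overhangs of 0, 1, 2, 3 and 4 nt at both ends, Ah04mir1887 had 3, 3, 4, 3 and 2 pairs, Ah20mirS3 had 4, 6, 7, 6 and 4, and Ah20mirS2 had 3, 3, 3, 3 and 2. Ah04mir1887 also had 4 pairs in which the 3' ends were recessed by 3 nt. Over all 3 precursors, 14 of 347 pairs of 21-nt sRNAs (4.03%) had a 2-nt overhang at both ends, against 33 of 605 pairs of equal length among the other lengths (5.45%). This count takes every pairing of the arms, so its denominator grows faster than the number of sRNAs and was largest at 21 nt. It therefore cannot show whether 21-nt sRNAs were richer or poorer in such duplexes than the other lengths. The share of sRNAs that lay in such duplexes was not counted for the other lengths. When the overhangs were read from RNAduplex on the strands alone, all 4 duplexes of Ah04mir1887, 5 of the 7 of Ah20mirS3 and all 3 of Ah20mirS2 had 2 nt at both ends.

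The A. thaliana reference genome holds a relative of Ah04mir1887. In TAIR10.1, a release of the TAIR10 assembly to which the authors mapped, the gene MIR1887 (AT4G07005) lies on the plus strand of chromosome 4 from 11370263 to 11370325, and its mature miRNA ath-miR1887 is annotated from 11370301 to 11370321, also 21 nt long. The sRNA mir1887_sRNA255 had the same 5' end in the alignment and differed from ath-miR1887 by 1 substitution, T19A, counted from 1 at the 5' end with the base of the A. halleri sRNA first. The 2 are shown with this base in capitals.
mir1887_sRNA255: tactaagtagagtctaagTga
ath-miR1887: tactaagtagagtctaagAga

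Ah04mir1887 thus had an sRNA at the position of the annotated miRNA under all 3 codes, and it was 1 of the 16 listed 21-nt sRNAs. Of the other members on its arm, 5 began 1 to 6 nt upstream of it and 2 began 4 and 5 nt downstream. Of the 16, 10 were identical to a stretch of this locus between 11370259 and 11370318, and mir1887_sRNA156, mir1887_sRNA215 and mir1887_sRNA255 matched it with 1 mismatch, at T21A, T20A and T19A, the same genomic base. The 3 without such a match were mir1887_sRNA2, mir1887_sRNA29 and mir1887_sRNA103. The strand mir1887_sRNA67, which faces mir1887_sRNA255 in the duplex described above, was among the 10 identical ones, at 11370269 to 11370289. For these 10, sRNAs of the transgene and sRNAs of the A. thaliana locus cannot be told apart by sequence, and the C24 genome was not used here.

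Of the 28 Ah20mirS3 sRNAs, 0 matched TAIR10.1 exactly and 1 matched with 1 mismatch. This was mirS3_sRNA383, 1 of the 4 listed under all 3 codes, with the substitution C13A at chromosome 4, 11370512 to 11370532, on the plus strand. The site lies 186 nt beyond the end of MIR1887, in no annotated gene. It is shown with the differing base in capitals.
mirS3_sRNA383: tttgattggttaCccgtaaaa
TAIR10.1 site: tttgattggttaAccgtaaaa
Ah20mirS2 had no such counterpart, since 0 of its 20 sRNAs reached TAIR10.1 within 1 mismatch. The authors discarded reads that also mapped to TAIR10 outside its masked S-locus, so these numbers say nothing of sites elsewhere in the genome.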

How the data were processed

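The series holds 9 small RNA libraries, 1 for each of 3 fractions of 3 transgenic genotypes. Per the labels and the study's methods, the authors trimmed and size-selected reads with TrimGalore, aligned them with ShortStack (1 mismatch allowed) against the matching A. halleri S-allele and against TAIR10 without its S-locus, and kept those found at the S-locus alone. The submitters' processing notes also name FastQC and Bowtie. The deposited tables give positions, lengths and sequences, without abundances. Depth is therefore unknown, and each sRNA weighs the same whether rare or abundant.

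Rows with a length of 21 nt were taken, and 1 repeated row was counted once. Starts were read as in a BED file, since end minus start equalled the length. The precursors were rebuilt from overlapping sRNAs with uncovered bases unknown, and folded with RNAfold of ViennaRNA 2.7.2. An unpaired end base took its partner from the nearest paired base within 3 nt. Python 3.11.15 and pandas 2.3.3 were used. Arms and overhangs were tested on simulated hairpins with fully paired stems. The rule for unpaired end bases and the effect of uncovered bases were therefore not tested. Matches to TAIR10.1 (RefSeq) allowed 1 mismatch.

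The sRNAs named were those under all 3 codes, those in duplexes with 2-nt overhangs and the outermost of each arm, and others are said to be chosen later or serve as neighbours of these. The members and lists were chosen with earlier results of these data known. Alternatives left out 1 library code, required at least 2 codes, counted by sequence, placed arms by the 5' end, or read overhangs from RNAduplex or as 1 to 3 nt.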

Additional observations from a re-analysis of the deposited data

How the results depend on the processing

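No paired analysis was possible because the library codes are not assigned to fractions, so libraries could not be matched across genotypes. Of 99 recomputed values, 68 stayed within 1.5 times the reported number or within the interval of the reported share, and 31 did not. These values are not separate checks, since the numbers of 5' ends repeat those of the sRNAs. The intervals of the shares are wide. Without AVBR-2 the Ah20mirS2 share with a 5' U fell from 50.0% to 33.3% and still lay within its interval. Leaving out 1 code at a time gave 10 to 16, 19 to 27 and 9 to 19 distinct 21-nt sRNAs and as many 5' ends. The 5' arm then had 6 to 8, 7 to 11 and 5 to 12 sRNAs, the 3' arm 4 to 8, 12 to 17 and 4 to 8, and the 2-nt duplexes numbered 2 to 4, 3 to 6 and 0 to 3, for Ah04mir1887, Ah20mirS3 and Ah20mirS2 in this order. The lowest values came without AVBR-14, AVBR-8 and AVBR-2. Without AVBR-13 the 3' arm of Ah20mirS2 had 5.

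With at least 2 codes required, 9, 15 and 5 sRNAs and as many 5' ends were left. The 5' arms had 5, 4 and 4, the 3' arms 4, 11 and 1, and the 2-nt duplexes numbered 2, 2 and 0, in the same order. The 21-nt share of Ah20mirS3 became 36.6%. Counting overhangs of 1 to 3 nt gave 10, 19 and 9 duplexes, since this takes in more pairs. RNAduplex gave 5, 9 and 3. Counting by sequence and placing arms by the 5' end changed no number. The lower numbers follow from fewer listed sRNAs, and how far depth limits the lists is unknown.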

Other observations

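The 64 sRNAs had 64 different sequences. They also had 64 different stretches at bases 2 to 8, the part that leads target pairing in animal miRNAs. As each has a 5' end of its own, this only says that no such stretch recurred among them in the hairpins. Between precursors, the longest run of bases that 2 of them had in common was 8 nt, in mirS3_sRNA39 and mirS2_sRNA26. Staggering on 1 arm therefore gave sRNAs that overlap widely, while the precursors had little sequence in common at this length. The median G and C content was 33.3% for Ah04mir1887 and Ah20mirS3 and 28.6% for Ah20mirS2. The arms of Ah20mirS2 differed, with a median of 23.8% for the 5' arm and 38.1% for the 3' arm, which had fewer U-beginning sRNAs. Those of Ah04mir1887 had 31.0% and 38.1%, but there U began 3 of 8 on the 5' arm and 4 of 8 on the 3' arm. Both arms of Ah20mirS3 had 33.3%.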
